A study of Mus musculus with 9 samples.

Results

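The 10 genes described here encode the non-collagen backbone of the muscle basement membrane: the laminin chains Lama2, Lama4, Lama5, Lamb1, Lamb2 and Lamc1, the nidogens Nid1 and Nid2, perlecan (Hspg2) and agrin (Agrn). They were chosen by name, and their symbols were matched to the Ensembl identifiers of the count tables, which list 46078 genes for the cultured cells and 38293 for GAS. All 10 were found in both tables.

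RNA was sequenced from GAS, the gastrocnemius muscle of C57BL/6 mice (n = 3), and from primary mouse myoblasts (MB) of the same strain, the cultured precursor cells of muscle fibers. MB were measured as PBS-treated controls (n = 2) and with sodium-L-lactate added to the medium at 10 mM (n = 2), and myotubes (MT, n = 2, also labelled as controls) were measured after MB had spent 3 days in differentiation medium. The GAS mice were female, 8 to 12 weeks old and of the substrain C57Bl6/J per the study's methods. No genetic alteration is named for any group. MB and MT grew on dishes coated with Matrigel, a basement membrane extract, so the cells had laminin protein beneath them that their own RNA does not reflect. The labels number the libraries as biological replicates without saying whether cultures with the same number share an animal, and the time in lactate is not given beyond a mention of overnight conditions. The libraries of cultured cells were made with Smart-seq2, a full-length cDNA protocol, and those of GAS from mRNA with another protocol, so GAS was not tested against cultured cells.

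A laminin is a heterotrimer of one α, one β and one γ chain, which assembles inside the cell and polymerizes on its surface. Adult skeletal muscle fibers are known for the α2 chain, whose loss causes a congenital muscular dystrophy, while α4 and α5 are known from vessels, nerve and the neuromuscular junction, and β2 from the junction. Nidogens and perlecan link the laminin network to type IV collagen, and agrin binds laminin and dystroglycan and, in its neuronal form, clusters acetylcholine receptors at the junction.

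The libraries of cultured cells held 5198247 to 10839516 counts and those of GAS 19307793 to 19941574. CPM, the read count scaled to library size, was normalized for library composition (TMM) separately in the cultured cells and in GAS, and RPKM is this CPM per kb of the summed exons of a gene. The markers fixed for the labelled cells were found: Pax7, Myf5 and Mki67 summed to 82.7 and 176 CPM in MB and to 54.0 and 34.7 CPM in MT, and Myog, Myh3 and Ckm to 97.8 and 46.2 CPM in MB and to 2217 and 5092 CPM in MT. Pax7 and Myf5 were lower in both MT libraries than in both MB libraries. Mki67 had 30.0 and 124 CPM in MB and 31.6 and 25.8 CPM in MT, and these groups overlapped. MT replicate 1 stood apart, with 8918 genes counted in no other cultured library. The fibroblast markers Pdgfra, Dcn, Lum, Col1a1 and Thy1 summed to 13536 and 1875 CPM in the MT libraries against 2.70 and 2.17 CPM in MB. Col1a1 alone made 13116 and 1762 CPM of the MT sums, and Dcn 408 and 110 CPM. Pdgfra had 5.66 and 2.54 CPM in MT and 1.59 and 1.45 CPM in MB. Lum had 81 and 6 counts in MT and 0 in MB. Of the 5 genes, 4 were above 3 counts in each MT library and 2 in each MB library. Thy1 had 1 and 0 counts in MT. Of 5 smooth muscle and pericyte markers, 5 and 3 were above 3 counts in MT replicates 1 and 2 and 2 in each MB library. They summed to 129 and 222 CPM in MT and to 13.7 and 9.04 CPM in MB, of which Pdgfrb alone made 105 and 210 CPM in MT, while Rgs5, with 1 count in MT replicate 2, was below both MB libraries there (22 and 35 counts). Macrophage markers summed to 19.0 and 4.07 CPM in MT and to 1.72 and 1.08 CPM in MB, with 5 and 3 of 5 above 3 counts in MT, and adipocyte markers to 4.02 and 0.254 CPM in MT and to 0 and 0.121 CPM in MB. All 5 endothelial markers were at 0 in MT replicate 2 and summed to 16.8 CPM in MT replicate 1. Whether cells of these types were present in the MT cultures, and what part they had in the results on MT, was not tested. In these bulk libraries, fewer cells of a type and less RNA per cell cannot be told apart.

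The study set MT beside MB to relate changes in histone lactylation to changes in expression, and the values here are those of expression. The share of Lamb2 among the laminin β chains and of Nid2 among the nidogens was higher in both MT libraries than in both MB libraries, a difference that was not itself tested. Nid2 rose 13.5-fold in mean CPM, Lama4 rose from no count to 21.5 and 41.4 CPM, and Lamb2 rose 3.09-fold. Of the 10 genes, these 3 were called higher in MT and 0 lower, with edgeR's quasi-likelihood test at an adjusted p under 0.05 and an absolute log2FC over 0.5. Among all 12921 genes tested, 11.0% were called higher and 6.86% lower. The median log2FC of the 10 genes was 0.41, also with Lama4 set to its lower bound, against 0.07 for all genes tested and 0.21 for the 3065 genes whose longest transcript is at least as long as that of Nid2, the shortest of the 10. Of these long genes, 12.7% were called higher. Both MT libraries were above both MB libraries for 5 of the 10 genes and below them for 2, and this was found for 32.9% and 29.2% of all genes tested.

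**Figure D1:**
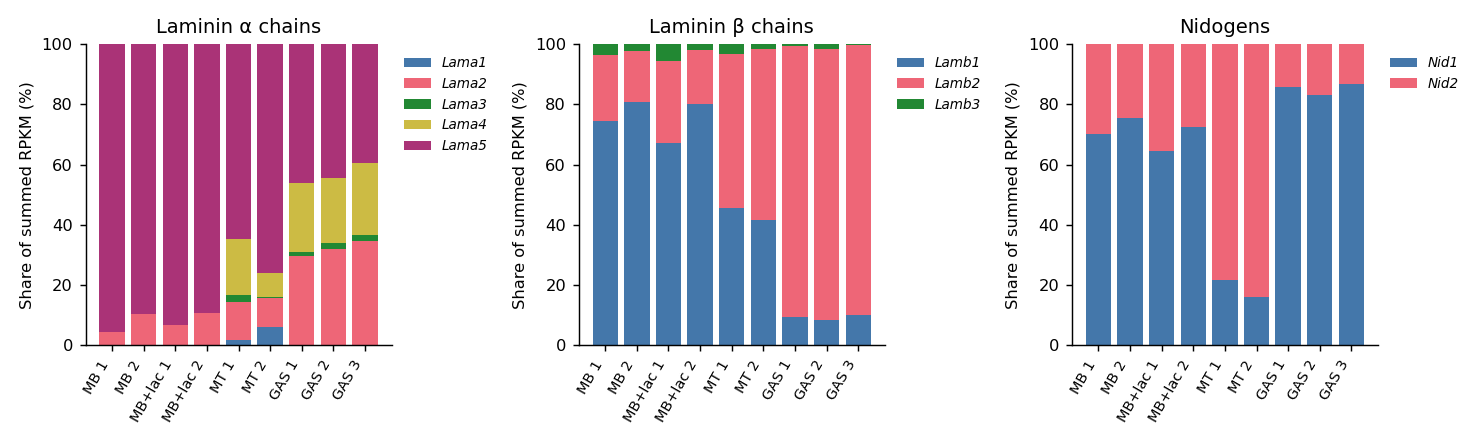
Share of each laminin α and β chain and of each nidogen in the summed RPKM of its class (y axes, percent), as stacked bars for the 2 MB, 2 lactate-treated MB (MB+lac), 2 MT and 3 GAS libraries. Lamb2 takes 16.9% and 21.8% of the β chains in MB, 51.2% and 56.6% in MT and 89.5% to 89.8% in GAS, and Nid2 is the larger nidogen in both MT libraries and the smaller one in the other 7.

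The α chain sets which receptors a laminin binds. In MB, Lama5 made up 95.6% and 89.6% of the summed RPKM of the 5 α chains, and Lama2 the rest. In MT, Lama5 took 64.6% and 76.1%, Lama2 12.5% and 9.71%, Lama4 18.7% and 7.94%, and Lama1, a chain of the embryonic basement membrane, 1.92% and 6.15%. With the longest transcript in place of all exons, the share of Lama4 in MT was 29.2% and 13.8%, that of Lama2 16.6% and 14.4% and that of Lama5 50.7% and 66.3%, and Lama5 took 92.8% and 83.6% in MB, so that Lama5 remained the largest in each of these 4 libraries. Both MT libraries held at least 4 α chains above 3 counts, and both MB libraries held 2. The summed RPKM of the α chains was 15.2 ± 9.1 (SD, n = 2) in MB and 20.4 ± 2.9 (SD, n = 2) in MT.

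Lama4 (chr10:38965515-39110188, plus strand) had 556 and 169 counts in MT and 0 counts in both MB libraries. In CPM these are 41.4 and 21.5 in MT, and the groups do not overlap. The mean in MT was at least 85.5-fold higher than the 3 counts per library taken as the limit in MB, and the lower of the MT libraries alone was at least 58.5-fold higher. The adjusted p was 0.000365 (edgeR quasi-likelihood test), and the call was kept under each of the 13 alternatives. The library with more Lama4, MT replicate 1, is also the one with more Dcn, the gene of the collagen-binding proteoglycan decorin, at 408 CPM against 110 CPM in MT replicate 2 and 0 and 0.241 CPM in MB. The order of 2 libraries cannot show a link between these genes, and none was tested.

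Lama2 (chr10:26980036-27619758, minus strand), the α chain of the mature fiber, had 37.5 and 35.6 CPM in MT and 15.4 and 14.9 CPM in MB. The replicates were close to each other and the groups did not overlap. The log2FC was 1.27 (SE 0.48) and did not pass the test (adjusted p = 0.0947, edgeR quasi-likelihood test). Lama5 (chr2:180176373-180225859, minus strand) had 135 and 195 CPM in MT and 236 and 90.0 CPM in MB. Here the MB libraries lay outside the MT libraries on both sides, and the log2FC was -0.03 (SE 0.54, adjusted p = 0.974).

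Of the β chain genes, Lamb2 was called higher and Lamb1 was not. Lamb1 (chr12:31265234-31329644, plus strand), which is widely expressed, had 202 and 307 CPM in MT and 423 and 402 CPM in MB. Lamb2 (chr9:108479736-108490530, plus strand) had 139 and 255 CPM in MT and 75.9 and 51.7 CPM in MB. Lamb1 was lower and Lamb2 higher in both MT libraries than in both MB libraries. For Lamb1 the log2FC was -0.72 (SE 0.46) and the adjusted p 0.312, and for Lamb2 the log2FC was 1.59 (SE 0.48) and the adjusted p 0.0425, both from edgeR's quasi-likelihood test. The call for Lamb2 is close to the threshold. It was lost with the replicate number as a block (adjusted p = 0.0573) and without MT replicate 1 (0.0681), MT replicate 2 (0.308) or MB replicate 2 (0.0805), and it was kept in the DESeq2 Wald test (0.0135) and with the trend on GC content and length removed (0.0112).

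The share of Lamb2 in the summed RPKM of Lamb1, Lamb2 and Lamb3 was 21.8% and 16.9% in MB and 51.2% and 56.6% in MT, and that of Lamb1 was 74.6% and 80.8% in MB and 45.6% and 41.7% in MT. Lamb3, a chain of epithelial laminin, stayed between 1.69% and 3.60% in these 4 libraries. The summed RPKM of the β chains was 53.7 ± 4.9 (SD, n = 2) in MB and 59.4 ± 20.9 (SD, n = 2) in MT. With the longest transcript in place of all exons, the mean share of Lamb2 was 13.2% in MB and 42.7% in MT, so which β chain is the larger in MT depends on the length used, while the rise from MB is there with either. Shares were not tested, because an exact permutation test of 2 against 2 libraries cannot pass the threshold.

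The promoters of these β chain genes differ in base composition, and the stretches upstream of the earliest annotated start are shown because the shares of the genes differ between the MB, MT and GAS libraries. They were read from RefSeq's promoter windows on GRCm38.p6, on the plus strand, 5′ to 3′, with each CpG in capitals. The stretch of Lamb1 is chr12:31265043-31265233 and that of Lamb2 is chr9:108479612-108479735.
Lamb1: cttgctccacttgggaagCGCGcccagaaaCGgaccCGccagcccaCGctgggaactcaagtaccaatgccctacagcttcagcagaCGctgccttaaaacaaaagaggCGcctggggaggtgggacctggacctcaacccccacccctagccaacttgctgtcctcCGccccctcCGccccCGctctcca
Lamb2: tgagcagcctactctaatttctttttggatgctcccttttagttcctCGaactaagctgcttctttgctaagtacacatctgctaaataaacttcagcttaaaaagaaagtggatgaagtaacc
The Lamb1 stretch holds 10 CpG in 191 bases at 63.9% GC, and the Lamb2 stretch 1 CpG in 124 bases at 37.9% GC. Over the whole window, from 250 bases before to 50 after the RefSeq start, Lamb1 has 18 CpG and Lamb2 has 4, against a median of 7 in 32851 promoters, of which 29.7% have at least 18 and 68.6% at least 4. The letters GGGCGG, searched on both strands, occur 2 times in the Lamb1 window and 0 times in that of Lamb2, and 35.7% of all windows hold them. The E-box letters CANNTG occur 2 times in Lamb1 and 1 time in Lamb2, in a background of 72.3%. Windows were found for 7 of the 10 genes, and not for Lama4, Lamc1 and Nid2. Those of Lama5, Hspg2 and Nid1 have 24, 27 and 20 CpG, that of Lama2 has 1, and the 2 starts of Agrn have 42 and 11.

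Lamc1 (chr1:153218922-153332786, minus strand) encodes the γ1 chain, which most laminins share. It had 78.6 and 91.4 CPM in MT and 51.0 and 56.4 CPM in MB. Both MT libraries were higher, but the log2FC of 0.66 (SE 0.41) did not pass the test (adjusted p = 0.296, edgeR quasi-likelihood test).

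Of the nidogens, Nid2 was called higher and Nid1 was not. Nid2 (chr14:19751265-19811787, plus strand) had 287 and 554 CPM in MT and 40.3 and 22.1 CPM in MB. Every MT library was far above every MB library. The log2FC was 3.70 (SE 0.57, adjusted p = 0.00201, edgeR quasi-likelihood test), and the call was kept under each of the 13 alternatives. MT replicate 2, the library with more Nid2, had the lower sum of fibroblast markers (1875 CPM, of which Col1a1 made 1762 CPM). Of the smooth muscle and pericyte markers, Pdgfrb and Abcc9 were higher in it than in MT replicate 1, and Rgs5, Myh11 and Cspg4 were lower, at 0.127, 0.382 and 0.763 CPM against 10.3, 2.98 and 2.31 CPM. Which cells held the Nid2 RNA was not tested, and an order of 2 libraries cannot tell. Without MT replicate 1 the log2FC of Nid2 was 4.05. Nid1 (chr13:13437551-13512269, plus strand) had 107 and 142 CPM in MT and 127 and 91.2 CPM in MB. Its groups overlapped, with a log2FC of 0.16 (SE 0.43, adjusted p = 0.836). Nid2 made up 29.8% and 24.5% of the summed RPKM of both nidogens in MB and 78.3% and 84.0% in MT. The sum itself was 21.8 ± 6.2 (SD, n = 2) in MB and 99.1 ± 40.1 (SD, n = 2) in MT. Over 437 bp, or 8.45% of its exonic length, Nid2 overlaps Rtraf on the other strand, and reads there cannot be told apart in counts without strand. Rtraf had 91.1 and 147 CPM in MT and 154 and 130 CPM in MB, and these groups overlapped.

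Hspg2 (chr4:137468769-137570630, plus strand), a large heparan sulfate proteoglycan, had 90.8 and 264 CPM in MT and 267 and 78.3 CPM in MB. Each group had one library near the low value and one near the high value. The log2FC was -0.04 (SE 0.65, adjusted p = 0.971), and the SE was the largest of the 9 genes with counts in both groups. Agrn (chr4:156165290-156197488, minus strand) had 12.6 and 16.8 CPM in MT and 37.3 and 21.0 CPM in MB. Both MT libraries were lower, with a log2FC of -1.02 (SE 0.53) that did not pass the test (adjusted p = 0.214). Without MB replicate 2 it passed, at a log2FC of -1.44 (adjusted p = 0.0396, edgeR quasi-likelihood test). The counts do not separate the neuronal from the muscle form of agrin, which differ by small exons.

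**Figure D2:**
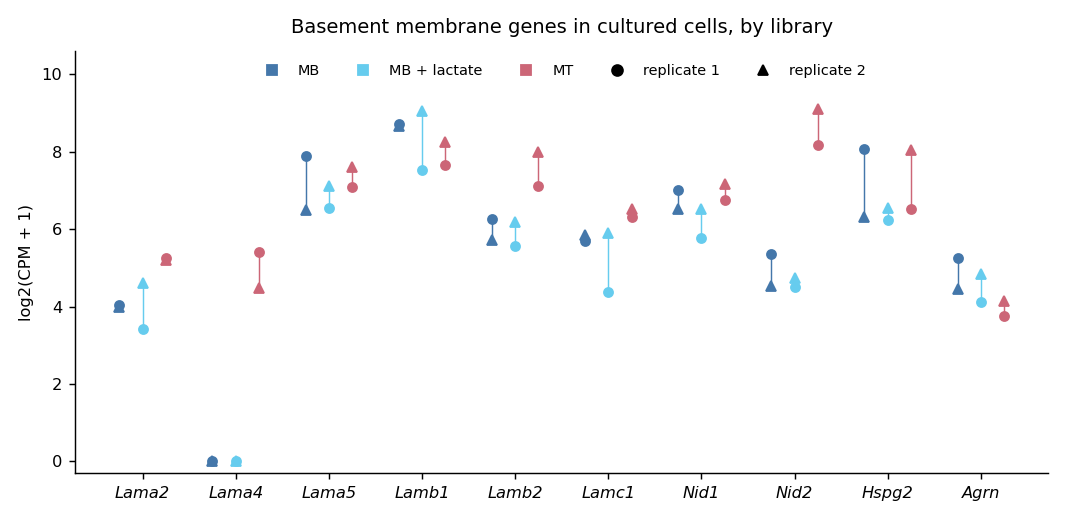
Level of each gene as log2(CPM + 1) in the 2 MB, 2 lactate-treated MB and 2 MT libraries, with circles for replicate 1, triangles for replicate 2 and a line joining the libraries of a group. Nid2 and Lama4 have the MT libraries far above all MB libraries, and Hspg2 and Lama5 spread as widely within MB as between groups.

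**Figure D3:**
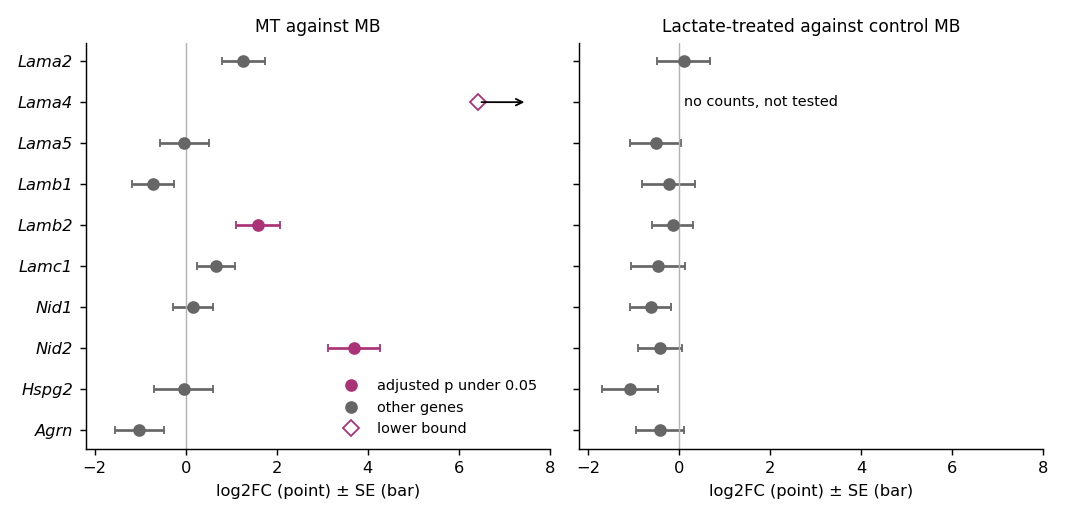
Fitted log2FC (points) with SE (bars) for MT against MB (left) and lactate-treated against control MB (right), with genes called at an adjusted p under 0.05 in purple and the lower bound of Lama4 as an open diamond with an arrow. Nid2 and Lamb2 are called on the left at 3.70 and 1.59, and no gene is called on the right.

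Ordered by mean RPKM, Lamb1 was the highest of the 10 genes in MB at 41.6 ± 1.5 (SD, n = 2), above Nid1 at 15.7 ± 3.7, without overlap between their libraries. Nid1, Lama5, Hspg2 and Lamb2 followed, and each overlapped its neighbour in this order. In MT, Nid2 was the highest at 81.2 ± 36.5 RPKM (SD, n = 2) and Lamb2 followed at 32.4 ± 13.5, again without overlap, while the order from Lamb2 through Lamb1, Nid1, Lama5 and Hspg2 to Lamc1 was of overlapping neighbours. Nid2 stood at rank 633 and Lamb2 at rank 1597 of the 13179 genes with a mean RPKM over 1 in MT, and Lamb1 at rank 1406 of 10484 in MB.

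The partners of these genes were taken from lists of names. Beside each list stand all genes tested, of which 11.0% were called higher and 6.86% lower in MT, with a median log2FC of 0.07. Of 4 other laminin chains listed, 2 could be tested and 1 was called higher in MT. Lama1, an α chain known from embryonic basement membranes, had 46 and 105 counts in MT and 0 in MB, at least 22.8-fold higher in the mean and 9.32-fold in the lower MT library (adjusted p = 0.00509, edgeR quasi-likelihood test). Of 8 basement membrane collagens, 5 were tested, 3 were called higher and 0 lower, with a median log2FC of 2.33. Col18a1, named after its values were seen, went the other way, at 97.8 and 172 CPM in MT and 456 and 323 CPM in MB. Its log2FC of -1.56 (SE 0.49) was just short of a call (adjusted p = 0.0507, edgeR quasi-likelihood test). Col4a1 and Col4a2, the chains of the common type IV collagen network, had log2FC of 2.36 (adjusted p = 0.0448) and 2.33 (0.0239). The call of Col4a1 was lost with the replicate block (adjusted p = 0.0948). Col15a1, a collagen of the outer face of the basement membrane, had 161 and 104 counts in MT and 2 and 0 in MB, at least 34.3-fold higher.

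Of 17 other basement membrane proteins, 13 were tested, with 2 higher and 1 lower. Frem2, of the Fraser complex of embryonic basement membranes, had 259 and 157 counts in MT and 0 in MB, at least 53.4-fold higher. Fbln2 rose (log2FC 3.66, SE 0.86, adjusted p = 0.0152) and Fbln1 fell (log2FC -2.44, SE 0.53, adjusted p = 0.0108), both of the fibulins, which bind laminin and nidogen. Of 11 laminin receptors, all were tested, 2 were higher and 3 lower. Bcam, a receptor for α5 laminins, rose (log2FC 5.70, SE 0.90, adjusted p = 0.00228), and so did Dag1, which encodes dystroglycan (log2FC 1.89, SE 0.58, adjusted p = 0.0473), although Dag1 was not called with the replicate block (adjusted p = 0.0527). Itga6, an integrin chain that binds laminin (log2FC -3.41, SE 0.45, adjusted p = 0.000799), and the syndecan Sdc3 (log2FC -2.04, SE 0.45, adjusted p = 0.0122) fell. Itga7, the integrin chain of the mature fiber, named after its values were seen, had a log2FC of 1.40 (SE 0.51) and was not called (adjusted p = 0.0818).

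Dystroglycan binds laminin, agrin and perlecan through a sugar chain. Of 13 genes of the enzymes that build it, 12 were tested with 0 calls, and their median log2FC was 0.22. Among all genes tested, 11.0% were called higher and 6.86% lower, with a median of 0.07. In the agrin receptor pathway, all 13 genes were tested, with 6 higher, 0 lower and a median log2FC of 1.06. Colq, the collagen tail that anchors acetylcholinesterase in the basement membrane, had 224 and 161 counts in MT and 2 and 0 in MB, at least 50.5-fold higher. Ache, the esterase itself, rose (log2FC 3.90, SE 1.14, adjusted p = 0.0387), as did Chrng, the fetal subunit of the acetylcholine receptor (log2FC 2.50, SE 0.51, adjusted p = 0.00785). Chrne, the adult subunit, had 33 and 11 counts in MT and 0 in MB, at least 5.24-fold higher (adjusted p = 0.0164). Lrp4, the agrin receptor, and Musk, the kinase it activates, were the other 2 genes called, and are named after their values were seen. Lrp4 had a log2FC of 1.91 (SE 0.46, adjusted p = 0.0166) and Musk of 1.87 (SE 0.53, adjusted p = 0.0335).

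The second comparison set lactate-treated MB against control MB. None of the basement membrane genes passed a threshold. Lama4 had 0 counts in all 4 libraries and was not tested, and of the other 9 genes 0 were called at an adjusted p under 0.05 and 0 at the study's nominal threshold (p under 0.01 with an absolute log2FC over 0.5). Among all 11804 genes tested, 0% were called by either rule with edgeR's quasi-likelihood test, and 5 genes had an unadjusted p under 0.05. With the replicate number as a block, 166 genes did. The DESeq2 Wald test called 0 genes at an adjusted p and 1 gene nominally. The study itself reported a small group of genes at the nominal threshold from edgeR, with no covariate stated. The lists of partner genes held no call here either.

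The estimates were below 0 for 8 of the 9 genes, with a median log2FC of -0.43 against -0.0034 for all genes. Hspg2 had 74.5 and 92.3 CPM with lactate and 267 and 78.3 CPM in the controls. One control library alone was high, and the log2FC was -1.08 (SE 0.62, adjusted p = 1.00, edgeR quasi-likelihood test). Nid1 had 53.2 and 90.5 CPM with lactate and 127 and 91.2 CPM in the controls. It was the 1 gene for which both lactate libraries lay below both controls, by under 1 CPM for the nearest pair, which 6.84% of all genes tested show. Its log2FC was -0.63 (SE 0.45).

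Lamb1 had 185 and 526 CPM with lactate and 423 and 402 CPM in the controls, so that the lactate libraries enclosed the controls (log2FC -0.23, SE 0.58). Lamc1 had 19.7 and 58.7 CPM with lactate and 51.0 and 56.4 CPM in the controls, again with 1 low lactate library (log2FC -0.47, SE 0.60). Lama5 had 92.6 and 139 CPM with lactate and 236 and 90.0 CPM in the controls (log2FC -0.52, SE 0.56). For Lama2, Lamb2, Nid2 and Agrn the log2FC were 0.10 (SE 0.58), -0.14 (SE 0.45), -0.43 (SE 0.48) and -0.41 (SE 0.53).

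The estimates rested on single libraries of both groups. Lactate replicate 1 was below lactate replicate 2 for all 9 genes. This held for 53% of all genes tested and 80.5% of the 2809 tested genes with transcripts at least as long as those of Nid2. Lactate replicate 1 was the lowest of the 4 libraries for 8 of the 9 genes, against 26.5% of all genes tested and 46.3% of these long genes. The median of log2(CPM + 1) in lactate replicate 1 minus replicate 2 was -0.72 over the 9 genes, -0.70 over the long genes and -0.07 over all genes tested, so other long genes were low in this library too. Without it, the estimates of Lamb1, Lamb2 and Lamc1 turned to 0.37, 0.19 and 0.15, and that of Hspg2 was still -0.88. Control MB replicate 1 was above control replicate 2 for 8 of the 9 genes, with a median of log2(CPM + 1) in replicate 1 minus replicate 2 of 0.54, against -0.30 over the long genes and 0.01 over all genes tested. Without this control, 5 estimates turned, namely Lama5 (0.40), Lamb2 (0.22), Nid2 (0.14), Hspg2 (0.13) and Agrn (0.12), and without lactate replicate 2 that of Lama2 turned to -0.72. Lactate replicate 1 was below control replicate 1 for all 9 genes, and lactate replicate 2 was above control replicate 2 for 8 of them. The shares of all genes tested and of the long genes with these signs were not computed. Over 7760 genes with counts above a set minimum in all 4 libraries, the median log2 of lactate over control was 0.06 in replicate 1. In replicate 2 it was -0.009. The shares of chains were near those of the controls: Lamb2 took 27.3% and 17.8% of the β chains, Nid2 35.4% and 27.5% of the nidogens and Lama5 93.2% and 89.4% of the α chains.

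GAS is the reference for the mature tissue, which holds vessels, nerve and connective tissue beside fibers. Markers of endothelial cells (134 to 157 CPM summed over 5 genes), fibroblasts (339 to 434), smooth muscle and pericytes (526 to 606), adipocytes (133 to 184), macrophages (47.7 to 53.3) and Schwann cells (21.9 to 41.1) were present in all 3 replicates. Abcc9 alone made 355, 295 and 354 CPM of the smooth muscle and pericyte sums. Fabp4 alone made 113, 139 and 142 CPM of the adipocyte sums. The part of these cells in the levels below was not tested. The replicates were close: the coefficient of variation of CPM ran from 1.25% for Lamb2 to 11.7% for Nid1.

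Lamb2 was the highest of the 10 genes in GAS. It had 130, 132 and 129 CPM, a mean of 21.5 ± 0.3 RPKM (SD, n = 3), and stood at rank 1467 of the 9874 genes with a mean RPKM over 1. The next genes were Hspg2 at 9.53 ± 0.51 RPKM, Lamc1 at 8.72 ± 0.63 and Nid1 at 8.05 ± 0.94 (SD, n = 3), and these 3 overlapped as neighbours. Lama5 followed at 3.03 ± 0.18 RPKM, Lama2 at 2.26 ± 0.22 and Lamb1 at 2.24 ± 0.16, of which Lama2 and Lamb1 overlapped. Lama4 at 1.61 ± 0.12 and Agrn at 1.61 ± 0.09 overlapped with this length, and Nid2 was the lowest at 1.40 ± 0.04 RPKM (SD, n = 3).

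The length used decides the order of the α chains and of other neighbours in GAS. With all exons of the gene, Lama5 was above Lama2 and Lama4, which took 29.7% to 34.7% and 21.7% to 24.0% of the α chains by replicate. With the longest transcript in place of all exons, the means were 3.83 RPKM for Lama2, 3.21 for Lama4 and 3.03 for Lama5. Lama2 was above the other 2 in each replicate. Lama4 and Lama5 overlapped, with 3.208, 2.964 and 3.451 RPKM by replicate for Lama4 and 3.210, 3.032 and 2.853 for Lama5. Lama5 was thus below Lama4 in replicate 3 only. Lama4 was then above Agrn, which stood at 1.73 RPKM, and Lamb1 was at 3.84 RPKM, beside Lama2. In plain counts Lama2 took 37.3%, 40.0% and 42.8% of the α chains by replicate and Lama5 40.3%, 38.6% and 34.0%. Their order was therefore not the same in each replicate.

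**Figure D4:**
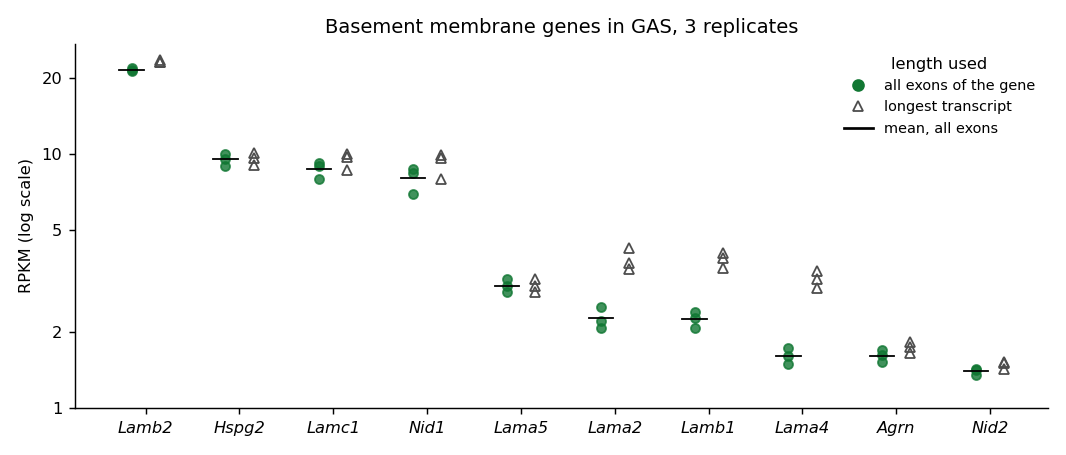
RPKM (y axis, log scale) of the 10 genes in the 3 GAS replicates, with the length of all exons (filled circles, black line at the mean) and with that of the longest transcript (open triangles). Lamb2 is above the other genes with either length, and Lama2, Lama4 and Lamb1 move up with the longest transcript.

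Set beside the cultured cells, with the protocols different and nothing tested, the share of Lamb2 was higher in each GAS replicate than in both MT libraries, and that of Nid2 lower than in both MB libraries. Lamb2 took 89.8%, 89.7% and 89.5% of the β chains in GAS, and Lamb1 between 8.54% and 10.0%. Nid2 took 14.4%, 17.0% and 13.3% of the nidogens. Lama1 was at 0 counts in all 3 GAS replicates, and Lama3 had 19 to 26 counts. Lama4, at 0 in MB, had 382, 354 and 402 counts in GAS.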

How the data were processed

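RNA sequencing of mouse GAS (3 replicates), MB, lactate-treated MB and MT (2 each) was used. The authors trimmed reads (Trim Galore 0.6.6), aligned them to mm10 (HISAT2 2.2.1) and counted them on genes with featureCounts (Subread 2.0.1), and deposited raw counts per gene. The versions are those of the submitters' processing notes. The annotation release, strand setting and treatment of reads with several alignments are not given in the sources used here. Library totals are in the report, and 3 counts, taken as the limit of detection, correspond to between 0.223 and 0.533 TMM-normalized CPM in the cultured cells and at most 0.156 in GAS, which covers counting error only.

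The 10 genes and all lists were chosen with earlier results of these data known. GENCODE M21, an annotation of the assembly used by the authors, gave symbols, coordinates and lengths, and RefSeq (GRCm38.p6) the promoters. Overlaps of exons with antisense genes cover 631 bp of Lama2, 143 bp of Nid1 and 437 bp of Nid2. TMM CPM and RPKM were computed in each table separately, with Python 3.11.15 (numpy 2.4.6, pandas 2.3.3, matplotlib 3.10.9) and R 4.3.3. MT and lactate-treated MB were each tested against control MB, which both comparisons share, with only the 4 libraries of the comparison in the model, in edgeR 4.0.16 (filterByExpr, TMM, quasi-likelihood test, Benjamini-Hochberg adjustment over all genes tested), without the replicate number. SE is the absolute log2FC divided by the square root of F. The scripts were tested on simulated data. Since nothing says which cultures share an animal, p-values measure the spread between these libraries.

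Genes outside the 10 were named by rule, as up to 4 called genes per list with the largest absolute log2FC, plus any gene that a result turns on. One gene of these lists is not reported here. Alternatives were RLE size factors, the DESeq2 1.42.0 Wald test, no filter, the replicate block, removal of the trend on GC content and length with and without the block, all 6 cultured libraries in one fit, leaving out ribosomal RNA genes and Gm26917, other lengths, plain CPM and each library left out. A fit with crossed replicate numbers was chosen after seeing the data.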

Additional observations from a re-analysis of the deposited data

How the results depend on the processing

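The number of the 10 genes called higher in MT stayed between 2 and 3 under all 13 alternatives, and Lamb2 was the gene lost. The number called lower was 0, except without MB replicate 2, where it was 1 (Agrn), so that leaving out 1 library each gave 0 to 1. Over all genes, those called lower in MT were 887, against 1578 with the trend on GC content and length removed, 1340 with this and the replicate block, and 288 to 1526 when 1 library was left out, namely 288 without MT replicate 1, 446 without MT replicate 2 and 1526 without MB replicate 2. The cause was not tested.

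The replicate numbers were not taken as pairs, since nothing states a shared origin and 2 pairs are too few to tell. Deviations of libraries with the same number correlated at -0.13 for MT with MB and at 0.70 for lactate-treated with control MB. The biological coefficient of variation is the spread between libraries beyond counting error. It was 0.455 for lactate and 0.225 with the block, and 0.425 and 0.449 for MT. With the block, 166 genes had an unadjusted p under 0.05 for lactate, against 5 without it (edgeR quasi-likelihood test). The lack of lactate calls without the block is therefore weak evidence of no change. Calls over all genes in MT were 1425 higher and 887 lower, 1447 and 824 with the block, and 1192 and 867 with crossed numbers. For lactate, no alternative gave an adjusted call. Nominal calls, 0 in the report, were 7 higher and 6 lower with the block, 15 and 73 with the block and the GC and length trend removed, 19 and 0 without MB replicate 1 and 178 and 1 without MB replicate 2, and 0 to 2 higher and 0 lower under the others. With the block and the trend removed, 1 of the 10 genes was among the 73 lower, Hspg2, at a log2FC of -0.89 (adjusted p = 0.999), against 0.620% of the 11779 genes tested.

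Directions turned for the estimates below, none of which passed an adjusted p of 0.05 under any setting. In MT against MB, the log2FC of Lama5 was 0.018 without a filter, 0.15 with the replicate block, 0.014 with the GC and length trend removed, 0.092 with both and 0.15 with crossed numbers, and that of Hspg2 was 0.038, 0.10 and 0.10 without a filter, with the block and with crossed numbers. When 1 library was left out, Lama5 ranged from -0.61 to 0.93, Hspg2 from -0.92 to 1.21 and Nid1 from -0.13 to 0.50. For lactate, Lama2 was at -0.025 with the block, and leaving out 1 library gave -0.72 to 0.64 for Lama2, -1.05 to 0.40 for Lama5, -1.23 to 0.37 for Lamb1, -0.54 to 0.22 for Lamb2, -1.52 to 0.15 for Lamc1, -0.79 to 0.14 for Nid2, -1.70 to 0.13 for Hspg2 and -0.89 to 0.12 for Agrn.

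Shares of chains moved with the length used and kept their order over MB, MT and GAS. Lamb2 took 13.2%, 42.7% and 84.8% of the β chains in MB, MT and GAS with the longest transcript and 13.0%, 42.2% and 84.6% in plain counts. Nid2 took 21.8%, 76.3% and 11.5% of the nidogens in plain counts. With 2 libraries a group, Lamb1 and Lamc1 were not called under any setting, and whether differences of their size can be detected was not tested.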

Other observations

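The spread between replicates was not alike for the 10 genes. In MB, Hspg2 differed 3.41-fold and Lama5 2.62-fold between the libraries, whereas Lama2 and Lamb1 differed 1.03-fold and 1.05-fold. GC content was taken from the longest transcript of each gene. By this measure, Hspg2 and Lama5 have the highest GC content of the 10, 60.9% and 59.9%, and Lama2 the lowest, 47.7%. Across genes, which are not independent replicates and share the same libraries, log2 of replicate 1 over replicate 2 correlated with GC content at r = 0.80 (rho = 0.82) over 9 genes in MB, at r = 0.62 (rho = 0.68) over 9 in lactate-treated MB and at r = -0.72 (rho = -0.77) over 10 in MT. A mean GC content over genes with the counts as weights came to 51.9% and 49.0% in the MB libraries, 51.8% and 49.2% with lactate and 49.6% in both MT libraries. Reads on CT010467.1, a gene of ribosomal RNA, were 9.20% of the total in MB replicate 1 and 13.8% in lactate replicate 1, against 0.131% to 0.575% in the other 4 cultured libraries. The part of GC content or ribosomal RNA in these spreads was not tested.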
